A study of Mus musculus with 960 samples.

Results

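The genes described here are 10 receptor tyrosine kinases outside the ErbB and FGF receptor families: Met, Mst1r, Igf1r, Insr, Pdgfra, Pdgfrb, Kit, Axl, Csf1r and Ddr1. Their accessible regions were taken from the deposited list of 500 bp summit windows, mapped to the mouse build mm9. A window was assigned to a gene when it overlapped the gene in GENCODE M1 or lay within 20 kb of it, and it was called a start-site window when any of its bases lay within 1 kb of an annotated start site of that gene. By this rule 71 of the 50000 windows belonged to the 10 genes, and 28 of the 71 were start-site windows.

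The study profiled open chromatin in single cells from a breast tumour of the MMTV-PyMT mouse, in which a viral promoter drives the polyoma middle T oncogene in mammary epithelium. Cells were fixed, permeabilised and stained, their accessible DNA was tagged with Tn5 transposase in bulk (ATAC-seq), and they were sorted 1 per well. By the labels, 8 plates of 96 wells carried antibodies to EpCAM, found on the surface of epithelial cells, together with antibodies to HIF1α, which accumulates when oxygen is low. A further 2 plates of 96 wells carried antibodies to EpCAM and to CD45, which marks leukocytes. All wells carry the same tumour model and no treatment or control group is labelled, and the labels name no animal and no HIF1α level per well. Tumours came from mice of 3 months of age. The list is 1 pooled file without counts, scores or replicates, so the depth behind a window is unknown, and everything below is a description of that list without a test. In such a pool, a site open in few cells and a site weakly open in many cells cannot be told apart.

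Receptor tyrosine kinases are surface proteins that bind a ligand outside the cell, pair up, and phosphorylate each other and docking proteins on the inside. Growth, survival and motility signals then run through the Ras-MAP kinase and PI3 kinase pathways. In the mammary gland, receptors for hepatocyte growth factor, insulin and insulin-like growth factors and collagen are known from the epithelium, whereas the PDGF receptors and the CSF1 receptor are known mainly as receptors of stromal cells and macrophages.

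The sequences beneath the windows that anchor the results are printed here, because the start sites of these genes ranged from CpG-dense to CpG-poor DNA. Each run is the central 200 bases of a window, on mm9 and 5′ to 3′ in the direction of the gene's transcription. The window nearest to an annotated start site was taken at Met, Insr, Pdgfra, Kit, Igf1r and Ddr1, and 200 bases around the start site were taken at Mst1r, which had no start-site window. The last 2 runs are windows deep inside introns, shown for an AP-1 match in Igf1r and for a CpG island composition in Insr. Capitals mark matches on either strand to the motif words searched below: GGGCGG (SP/KLF), ACGTG (HIF core), TGTTTAC (FOX) and TGANTCA (AP-1) were the only ones of the 12 words to match in these runs. Igf1r start and Pdgfra inner start held no match and are in lower case throughout.
Met start (chr6:17413703-17413902, plus strand): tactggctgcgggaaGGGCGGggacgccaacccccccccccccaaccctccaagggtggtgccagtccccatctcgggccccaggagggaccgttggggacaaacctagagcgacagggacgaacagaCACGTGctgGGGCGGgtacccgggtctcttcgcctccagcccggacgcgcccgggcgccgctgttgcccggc
Igf1r start (chr7:75097257-75097456, plus strand): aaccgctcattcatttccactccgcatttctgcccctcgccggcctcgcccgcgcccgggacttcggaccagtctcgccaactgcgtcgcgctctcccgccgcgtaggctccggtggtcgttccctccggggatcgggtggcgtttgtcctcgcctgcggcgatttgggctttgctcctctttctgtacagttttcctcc
Insr start (chr8:3279467-3279666, minus strand): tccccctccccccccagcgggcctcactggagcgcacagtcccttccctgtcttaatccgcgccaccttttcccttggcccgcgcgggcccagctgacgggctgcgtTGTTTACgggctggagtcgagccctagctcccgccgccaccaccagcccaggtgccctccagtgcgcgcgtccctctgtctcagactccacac
Pdgfra inner start (chr5:75552206-75552405, plus strand): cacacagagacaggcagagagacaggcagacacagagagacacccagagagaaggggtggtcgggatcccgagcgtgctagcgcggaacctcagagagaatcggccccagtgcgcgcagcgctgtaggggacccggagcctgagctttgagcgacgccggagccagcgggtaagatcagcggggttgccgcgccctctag
Kit start (chr5:75970737-75970936, plus strand): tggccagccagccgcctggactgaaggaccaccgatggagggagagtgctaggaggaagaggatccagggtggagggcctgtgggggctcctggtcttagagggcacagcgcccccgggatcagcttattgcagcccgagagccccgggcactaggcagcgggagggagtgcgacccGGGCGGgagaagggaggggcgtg
Ddr1 inner start (chr17:35837389-35837588, minus strand): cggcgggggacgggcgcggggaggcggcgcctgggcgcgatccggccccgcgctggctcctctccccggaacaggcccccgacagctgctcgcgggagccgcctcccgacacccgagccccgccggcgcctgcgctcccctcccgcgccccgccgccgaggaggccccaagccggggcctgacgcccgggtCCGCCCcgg
Mst1r start without a window (chr9:107809120-107809319, plus strand): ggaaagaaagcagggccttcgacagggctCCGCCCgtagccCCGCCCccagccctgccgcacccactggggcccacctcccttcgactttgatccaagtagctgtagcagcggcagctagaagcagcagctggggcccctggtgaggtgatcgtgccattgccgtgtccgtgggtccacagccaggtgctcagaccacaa
Igf1r intron 2 (chr7:75274826-75275025, plus strand): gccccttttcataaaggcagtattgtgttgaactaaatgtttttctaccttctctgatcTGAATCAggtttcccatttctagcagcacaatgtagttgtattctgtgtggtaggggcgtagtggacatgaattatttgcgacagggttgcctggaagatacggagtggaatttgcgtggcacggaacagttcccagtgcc
Insr intron 2 (chr8:3221113-3221312, minus strand): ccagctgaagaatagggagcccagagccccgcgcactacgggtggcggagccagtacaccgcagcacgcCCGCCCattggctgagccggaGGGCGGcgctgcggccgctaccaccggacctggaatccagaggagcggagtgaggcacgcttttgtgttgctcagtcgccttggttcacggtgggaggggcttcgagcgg

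In the Met run, 2 annotated start sites stood 27 bases apart, the first at base 98. The HIF core match began 4 bases beyond the second and holds the word on both strands. The Insr start run held 2 start sites 66 bases apart, the first at base 50, and its FOX match ended 2 bases before the second. The Ddr1 run held start sites at bases 34 and 92 and was the richest in CpG, with 33 CpG dinucleotides and 84.5% GC. The Mst1r run, centred on the start site, held 10 CpG dinucleotides, 65.5% GC and 2 SP/KLF matches.

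The labelled tissue was checked against marker lists over all 22350 protein-coding genes of chromosomes 1 to 19 and X. All 12 luminal epithelial markers had a start-site window, with 11 windows at the start sites of Gata3, 5 at Elf5 and 4 at Krt8. A start-site window was found for 1 of 10 fibroblast markers (Pdpn, 1 window), 3 of 8 pericyte markers (Notch3 with 3, Kcnj8 and Anpep with 1 each) and 1 of 10 macrophage markers (Cd14, 2 windows). It was found for 0 of 8 mast cell markers, among them Cpa3, Cma1 and Mcpt4. For endothelial markers it was 0 of 8, among them Pecam1, Cdh5 and Kdr. The share was 52.9% over all genes and 27.4% over those without a CpG island at the outermost start site (criteria below). That island was lacking at 9 of 10 fibroblast, 6 of 8 pericyte and 10 of 10 macrophage markers. The same held for 7 of 8 mast cell and 7 of 8 endothelial markers, and for 10 of 12 luminal markers. With 20 kb flanks included, 72.4% of all genes had a window. So did 12 of 12 luminal, 6 of 10 fibroblast, 6 of 8 pericyte and 6 of 10 macrophage markers. The counts were 6 of 8 for endothelial and 1 of 8 for mast cell markers. Among the markers without any such window were Ptprc (the CD45 gene), Lyz2, Col1a2, Col3a1 and Rgs5. The sources do not say whether cells of the CD45 plates were part of the pool. The list is named after the HIF stain alone, and the cell numbers of the study for each stain do not match the labelled wells, so which wells were pooled is unknown. The paper describes the tumour cells isolated for its HIF1α experiment as EpCAM-positive. How far the marker counts follow from that choice of cells was not tested.

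Of the 10 receptor genes, 7 (70.0%) had a start-site window, against 11819 of 22350 protein-coding genes (52.9%, exact 95% binomial interval 52.2 to 53.5%, covering counting error only). The 7 were Met, Igf1r, Insr, Pdgfra, Kit, Axl and Ddr1. Mst1r, Pdgfrb and Csf1r had none. Any window in the gene or its 20 kb flanks was present for 9 of the 10 receptor genes, against 72.4% of all genes, and Pdgfrb was the exception. A window overlapping the gene body was present for 8 of the 10, against 57.1% of all genes, with none in Mst1r or Pdgfrb. A receptor without a window is a gene for which none was among the 50000 kept by the authors, and its accessibility below that threshold is unknown.

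The number of windows differed widely among the receptors. Igf1r had 17, Ddr1 14, Insr 10, Axl 8, Met 7, Kit 6, Pdgfra 4, Mst1r 3, Csf1r 2 and Pdgfrb 0, where the median of all genes was 2. Per 100 kb of locus (the gene and its flanks), Ddr1 had 22.2 windows, more than 98.2% of all genes, and Axl had 11.2, more than 88.5% of them. Insr, Mst1r, Igf1r, Kit, Met and Pdgfra lay between 4.66 and 5.93, and Csf1r was at 3.0 beside a median of 2.92 over all genes. Thus 9 of the 10 lay above that median. Windows at the start of a neighbouring gene were 2 of the 3 at Mst1r, 2 of the 8 at Axl and 2 of the 14 at Ddr1. At Csf1r, 1 of the 2 windows lay downstream of the gene. By position, 30 of the 71 windows lay inside a receptor gene away from its start sites, 7 lay upstream and 6 downstream. Of the 30 intragenic windows, 21 were in Igf1r or Insr, and 15 of the 28 start-site windows were at Ddr1 or Kit.

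**Figure D1:**
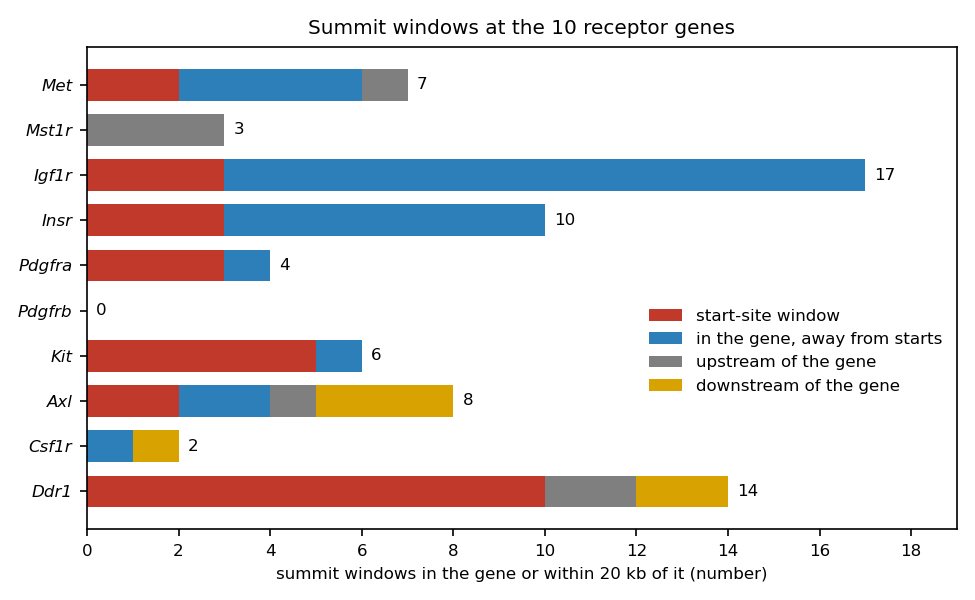
Bars give the number of summit windows in each receptor gene and its 20 kb flanks, with colours for the position of the window and the total at the end of the bar. Igf1r (17) was mostly intragenic, Ddr1 (14) mostly at start sites, and Pdgfrb had 0.

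Met and Mst1r encode the receptors for hepatocyte growth factor and for macrophage-stimulating protein, and they are each other's closest relatives. Met (chr6:17413800-17523980, plus strand) had 2 overlapping start-site windows from 1 called peak that spanned 955 bp. Their summits lay 0.003 and 0.458 kb inside the outermost start site, on exon 1 and in intron 1 of transcript Met-001. Of the 7 annotated Met start sites, 5 had both windows nearby, and the 2 inner ones, whose nearest summits were 12415 and 24387 bp away, had none. Another 4 windows lay in introns 1, 3 and 4, at 17.6, 38.1, 43.3 and 58.8 kb from the outermost start site, and 1 lay 4129 bp upstream. The gene is 110 kb long, and the part beyond the last of these windows held none.

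Mst1r (chr9:107809220-107822714, plus strand), which encodes the receptor also called RON, had no window in the gene. The nearest summit to its only annotated start site was 8091 bp upstream. The other 2 windows of the locus lay 18204 and 18794 bp upstream, and these are start-site windows of Mon1a, a gene of vesicle trafficking. The related receptors therefore differed at their starts: 2 windows at Met and 0 at Mst1r. The DNA within 500 bp of the outermost start site had 67.0% GC and 85 CpG dinucleotides at Met and 58.1% GC and 37 CpG dinucleotides at Mst1r.

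Igf1r and Insr encode the receptors for insulin-like growth factors and for insulin. Igf1r (chr7:75097713-75371484, plus strand) had 3 start-site windows from 1 called peak of 1150 bp. All 3 summits lay upstream of the start site, at 0.356, 0.583 and 1.01 kb from it. The 14 intragenic windows lay from 20740 to 189980 bp inside the gene, 2 in intron 1 and 12 in intron 2 of transcript Igf1r-201. The second annotated start site, at position 75293457, had no start-site window, and its nearest summit was 5764 bp away. Within intron 2, a called peak with 3 windows spanned 1232 bp at chr7:75273944-75275175. It is the only called peak with several kept windows inside a receptor gene and away from its start sites.

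Insr (chr8:3150922-3279617, minus strand) had 3 start-site windows, and each came from a called peak of its own. Their summits lay 0.877 kb upstream, 0.016 kb upstream and 1.22 kb downstream of the nearest annotated start site. All 7 intragenic windows lay in intron 2 of transcript Insr-001, from 26.7 to 67.9 kb inside the gene. The window at 58.4 kb had the composition of a CpG island (60.6% GC and 34 CpG dinucleotides), with no annotated start site of any gene within 28496 bp. The other 6 intragenic windows had between 2 and 10 CpG dinucleotides. Among the 2399 genes of 100 kb or more, the median number of windows in the gene body was 3. Igf1r had 14, more than 94.0% of these genes, Insr had 9, more than 85.0%, and Met had 6, more than 72.8%.

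**Figure D2:**
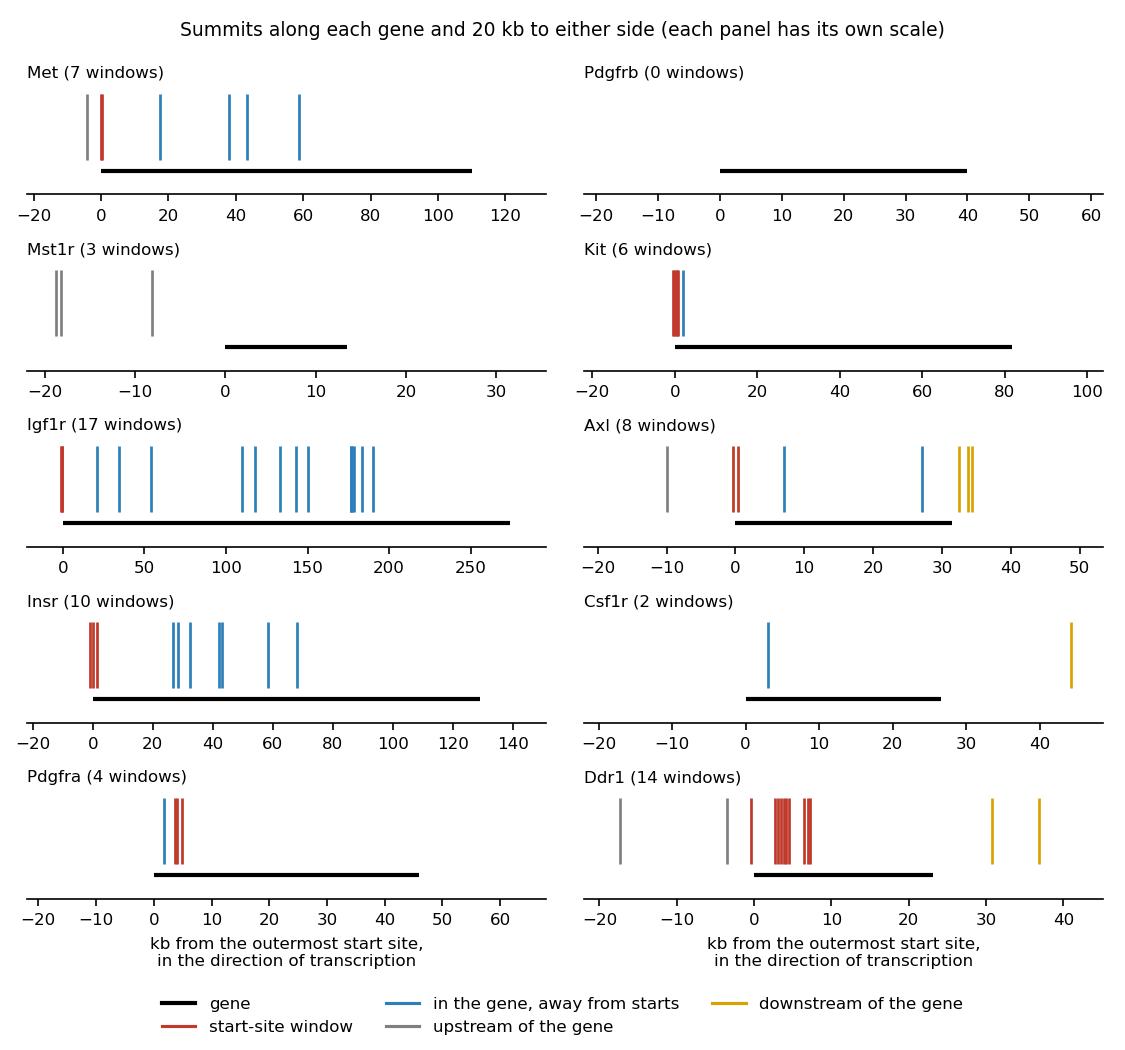
Each panel shows a receptor gene as a black bar and its summits as vertical lines, by kb from the outermost start site in the direction of transcription, with 20 kb to either side and a scale of its own. In Igf1r and Insr the windows spread over introns, and in Kit none lies more than 2.08 kb inside the gene.

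Pdgfra, Kit, Pdgfrb and Csf1r belong to the receptor class with 5 immunoglobulin-like domains, and they stand as neighbours in pairs on chromosomes 5 and 18. Pdgfra (chr5:75548316-75594229, plus strand), a receptor for platelet-derived growth factors known from mesenchymal cells, had 4 windows. None of them lay within 1 kb of the outermost start site, whose nearest summit was 1847 bp inside the gene. The 3 start-site windows lay at the second annotated start site (transcript Pdgfra-202, position 75552191), with summits 0.2 kb upstream and 0.115 and 0.977 kb downstream of it. Within 500 bp, the outermost start site had 42.9% GC and 19 CpG dinucleotides. The 500 bp window nearest the second one had 64.2% GC and 35 CpG dinucleotides. Counting only outermost start sites, Pdgfra had 0 start-site windows.

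Kit (chr5:75970941-76052747, plus strand), the receptor for stem cell factor, is known from melanocytes, mast cells and blood progenitors and also from luminal progenitors of the mammary gland. A single called peak gave 5 overlapping windows over 1800 bp, with summits from 0.489 kb upstream to 0.772 kb downstream of the nearest start site. Called peaks with 5 or more kept windows were rare, 0.615% of the 38400 called. Of all genes, 1.8% had as many start-site windows as Kit or more. The interval within 1 kb of its start sites is long (10.0 kb), and per kb of it Kit had 0.498 windows. That was more than 74.5% of all genes. The sixth window lay in intron 1, 2037 bp from the nearest start site. Beyond it no window was found in the remainder of the 81.8 kb gene, and 4 further annotated start sites there had none. None of the 8 mast cell markers had a start-site window, but 7 of the 8 lacked a CpG island at the outermost start site. Of all genes, 27.4% without such an island and 85.0% with one, as at Kit, had a start-site window. The cells behind the Kit windows were not tested.

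Pdgfra and Kit are separated by 376711 bp without another protein-coding gene. In that stretch, 9 windows from 6 called peaks lay outside the 20 kb flanks of both genes. They stood 29316 to 169229 bp upstream of the Kit start site, and 1 call among them kept 3 windows. The assignment of these 9 to either gene is not given by position, and they are not among the 71.

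Pdgfrb (chr18:61204804-61244715, plus strand), the other PDGF receptor and a defining gene of pericytes, was the only receptor without any window. The nearest windows lay 122809 bp before its start and 23330 bp beyond its end. The window beyond its end stands inside Csf1r, which follows Pdgfrb after 20.5 kb without a window between them. The outermost start site of Pdgfrb had no CpG island (observed over expected CpG ratio 0.394). Of the 8 pericyte markers, 3 had a start-site window (Notch3, Kcnj8 and Anpep) and 5 had none, against 52.9% of all genes with one. A CpG island was lacking at the outermost start site of 6 of the 8. Of those 6, 2 had a start-site window, against 27.4% of all genes without such an island. Among the 5, Rgs5 had 0 windows in or near the gene, Cspg4 had 3 and Abcc9 had 6.

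Csf1r (chr18:61265226-61291803, plus strand) encodes the receptor for CSF1 and IL-34 and is a defining gene of macrophages. It had 2 windows and none at its 4 annotated start sites. The intragenic window (chr18:61268045-61268544) lay in intron 1 of transcript Csf1r-203, 2762 bp from the nearest start site, and held AP-1, NFI half-site and SP/KLF words in its central 200 bp. An intronic enhancer used in macrophages is known in this gene, and its position is not marked in the files. The other window lay downstream of the gene, 43911 bp from the nearest Csf1r start site. The DNA around the outermost start site was the poorest in CpG among the 10 genes, with 10 dinucleotides within 500 bp to either side and 49.8% GC. Of the 10 macrophage markers, Cd14 had 2 start-site windows and the other 9 had none. All 10 lacked a CpG island at the outermost start site, and of all genes without one 27.4% had a start-site window. Among the 9 markers without a start-site window, Cd68 had 8 windows in or near the gene, and Ptprc and Lyz2 had 0.

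Axl (chr7:26542292-26573724, minus strand) encodes a receptor for the vitamin K-dependent ligand GAS6. It had 2 start-site windows, with summits 0.401 kb upstream and 0.367 kb downstream of the nearest start site, each from a call of its own. Intragenic windows lay in introns 4 and 17 of transcript Axl-001, 7002 and 27115 bp inside the gene. The window in intron 4 was rich in GC (67.2%, with 31 CpG dinucleotides), more so than both windows at the start (57.4 and 60.2%). Beyond the gene's end, 3 windows of 1 call stood at or near the start of Hnrnpul1, which encodes an RNA-binding protein, and with the window 9988 bp upstream of Axl they made up all 4 in its flanks. Counting the gene body alone, Axl had 3 windows.

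Ddr1 (chr17:35818512-35841566, minus strand) encodes a collagen receptor found in epithelia, and had 10 start-site windows over 12 annotated start sites within 6.65 kb. Only 0.0537% of all genes had as many. The windows overlap in part, and when those sharing 1 bp or more were merged, 4 remained at Ddr1, as did 1 each at Kit, Igf1r and Met. The interval within 1 kb of its start sites is long (8.07 kb), and per kb of that interval Ddr1 had 1.24 windows, more than 96.3% of all genes. A called peak with 6 windows spanned 2431 bp in intron 2 of transcript Ddr1-001, and one with 3 windows spanned 1345 bp further inside the same intron. Only 86 of 38400 called peaks (0.224%) kept 6 or more windows. A single window stood at the outermost start site, 0.359 kb upstream of it. Counting only outermost start sites, Ddr1 therefore had 1 start-site window. Windows at 3491 and 17321 bp upstream and at the starts of Gtf2h4 and Vars2 downstream made up the rest of the locus.

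**Figure D3:**
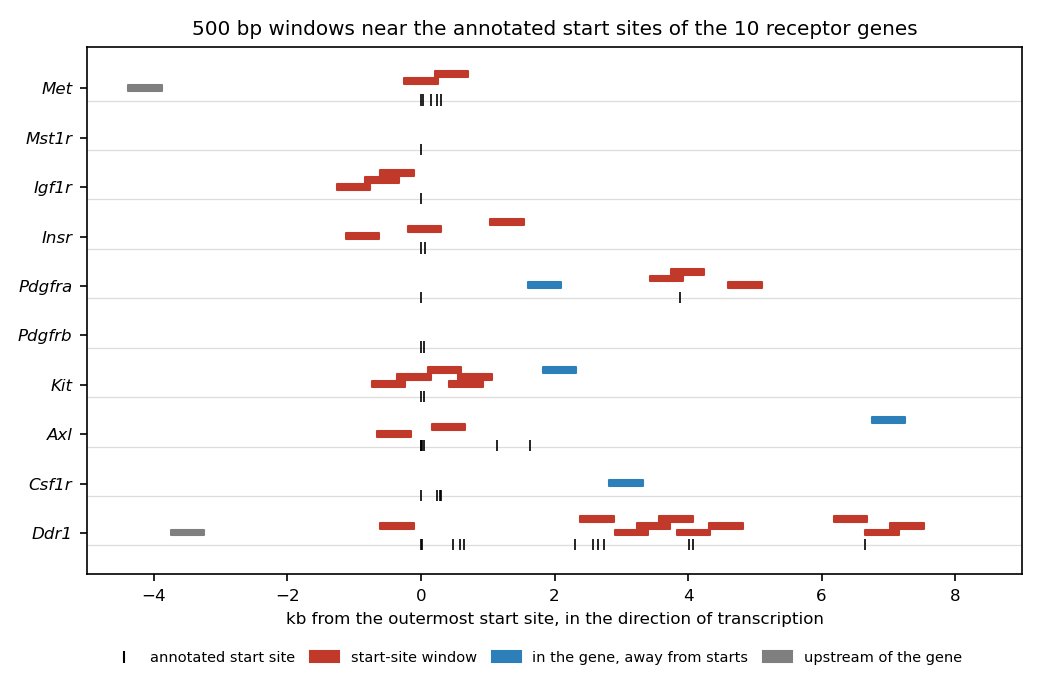
Coloured bars are 500 bp windows and black ticks annotated start sites, drawn to scale in kb from the outermost start site of each receptor gene. The 5 start-site windows of Kit and the 2 of Met lie within 1 kb of the outermost start site. Most of the 10 at Ddr1 and all 3 at Pdgfra lie at inner start sites. The ticks of Mst1r, Pdgfrb and Csf1r have no window above them.

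The composition of the start sites separated the receptors into groups. Within 500 bp to either side, the outermost start sites of Met, Igf1r, Insr and Kit met the criteria for a CpG island (at least 50% GC and an observed over expected CpG ratio of at least 0.6). All 4 had a start-site window. Of the 6 receptors without an island there, Pdgfra, Axl and Ddr1 had a start-site window and Mst1r, Pdgfrb and Csf1r had none. Islands were judged at the outermost start site alone, whereas windows were counted at any start site. At the outermost start site Pdgfra had 0 of its 3 windows and Ddr1 1 of its 10. Among these windows, 1 at Pdgfra and 2 at Ddr1 met the island criteria themselves. Of all genes, counted in the same way, 85.0% of the 9879 with an island at the outermost start site had a start-site window. Of the 12471 others, 27.4% had one. The start-site windows of the receptors had a median GC content of 61.2% (n = 28), equal to the median of all 19661 start-site windows. Their median number of CpG dinucleotides was 19, against 33 in all start-site windows, and 13 of 28 (46.4%) met the island criteria, against 64.1%. The 10 windows of Ddr1, which overlap in part, held 2 of the 13 islands. Among the other 18 windows, a set chosen after the values were seen, the median was 35.5 CpG dinucleotides and 11 (61.1%) met the island criteria. Igf1r held 67 to 74 CpG dinucleotides in its 3 start-site windows, Ddr1 3 to 57 in its 10 and Axl 7 to 14 in its 2. The 37 receptor windows away from any start site had a median GC content of 48.0% and 8 CpG dinucleotides, against 50.2% and 7 in all 30339 such windows.

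Sequence words of 12 factor families were searched on both strands of each 500 bp window. The word for AP-1 was TGANTCA and the word for the epithelial and blood factors of the ETS family was CCGGAAG. For GATA factors AGATAA was searched, and for RUNX factors the word was AACCACA. For the Hippo pathway factors of the TEAD family it was CATTCC, and for nuclear factor I it was the half-site TTGGCA. The Grainyhead word was AACCGGTT, and the word for SP and KLF factors, which bind GC boxes, was GGGCGG. The core of the hypoxia response element was ACGTG, and the forkhead word was TGTTTAC. The C/EBP word was TTGCGCAA, and STAT factors were searched with TTCNNNGAA. Matches of different words overlapped in only 2 of the 71 windows. At the start sites of the receptors, SP/KLF was the most frequent word, in 18 of 28 windows (64.3%), against 67.3% of all start-site windows. The HIF core was found in 4 of 28 (14.3%), against 35.9%, and the ETS word in 0 of 28, against 16.7%. The 4 with a HIF core were 1 window each at Met, Igf1r, Insr and Kit. The AP-1 word was found in 5 of 28 (17.9%), against 8.56%, and those 5 were both Met windows and 3 of the 10 at Ddr1. In the central 200 bp of the windows the gaps for the HIF core and ETS were smaller, and that for AP-1 was absent. There the HIF core was found in 4 of 28 (14.3%), against 17.5%, and AP-1 in 1 of 28 (3.57%), against 3.57%. ETS was found in 0 of 28, against 9.57%. Windows of 1 gene overlap in part, so these counts are not of independent sequences, and a word is not a bound site.

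Away from start sites, the NFI half-site and the HIF core were the most frequent words in the receptor windows, each in 11 of 37 (29.7%), against 41.8% and 25.2% of all windows away from starts. The AP-1 word was found in 7 of 37 (18.9%), against 18.9%. TEAD was found in 18.9%, against 28.4%, and RUNX in 16.2%, against 11.7%. GATA was found in 6 of 37 (16.2%), against 16.7%, and 5 of these 6 windows were in Igf1r. The Grainyhead and C/EBP words were found in no receptor window of either class, and in under 1% of all windows.

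**Figure D4:**
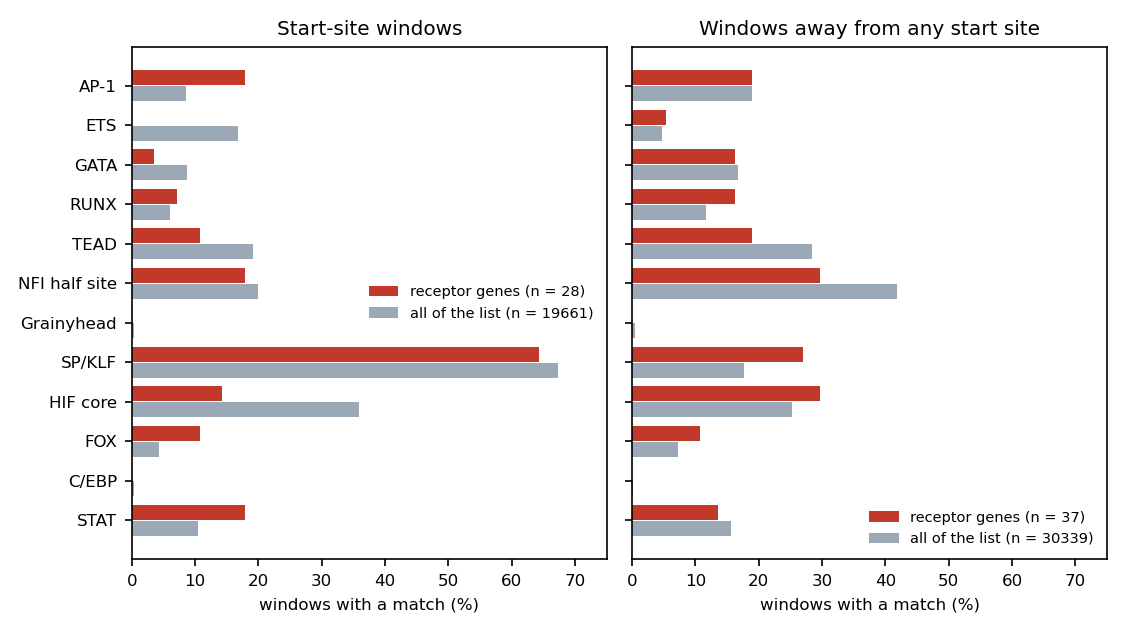
Bars give the percentage of 500 bp windows with a match to each word on either strand, for the receptor genes (red) above all windows of the same class in the list (grey). At start sites the receptors stood at 14.3% for the HIF core, against 35.9% over the full windows and 17.5% in their central 200 bp, and at 0% for ETS, against 16.7% and 9.57%.

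The ligand genes of the 10 receptors had start-site windows less often than the genes of their intracellular partners, and fewer of them had a CpG island at the outermost start site. Of 14 ligand genes, 9 (64.3%) had a start-site window, against 52.9% of all genes, with 4 at Pdgfa, 3 at Kitl and 3 at Csf1. Hgf, the ligand of Met, Ins1, which encodes insulin, and Igf2 had none, and Hgf and Ins1 had no window within 20 kb either. Thus Kit and its ligand gene Kitl both had start-site windows, whereas Csf1r had none and its ligand gene Csf1 had 3. All 13 docking and adaptor genes had a start-site window, with 4 each at Irs1, Shc1, Gab1 and, named after its value was seen, Dok1, and so did all 12 genes that attenuate receptor signalling, led by Lrig1 and Socs2 with 6 each and Cblc with 5. IRS1 docks at the insulin and IGF1 receptors, GAB1 at Met, and LRIG1 is a membrane protein that limits several receptors. The 17 windows of Igf1r, the most among the receptors, compared with 29 in or near Gab1 and 24 in or near Lrig1. An island start was found for 4 of the 10 receptors and 6 of 14 ligands, against 11 of 13 docking and adaptor genes and 10 of 12 attenuating genes. Among island starts, 5 of 6 ligands, 11 of 11 docking and adaptor genes and 10 of 10 attenuating genes had a start-site window. The share of all island-start genes was 85.0%. Among the other starts it was 4 of 8 ligands, 2 of 2 docking and adaptor genes and 2 of 2 attenuating genes, against 27.4%.

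Receptor tyrosine kinases outside the 10 genes were counted in the same way. All 4 ErbB receptors had a start-site window (Egfr and Erbb4 with 4 each, Erbb3 with 3), as did 3 of 4 FGF receptors, with 6 at Fgfr2, 2 at Fgfr1, 1 at Fgfr3 and 0 at Fgfr4. Against the 7 of 10 genes described here (70.0%), 20 of the remaining 40 receptor tyrosine kinases had a start-site window (50.0%). The share of all genes was 52.9%. An island start was found for 4 of 4 ErbB receptors, 3 of 4 FGF receptors and 24 of the 40. It was found for 4 of the 10 genes. Among the 40, 14 of 24 island starts had a start-site window, against 85.0% of all island-start genes. Of their 16 other starts 6 had one, against 27.4%. For the 10 genes the counts were 4 of 4 and 3 of 6. Epha7 had 6 start-site windows, Ephb6 5 and Mertk, a relative of Axl, 3, and Insrr, Flt3 and Kdr had 0. Median windows per 100 kb of locus were 5.17 for the 10 genes, 9.27 for the ErbB receptors, 4.53 for the FGF receptors and 1.9 for the remaining 40. The median of all genes was 2.92. Among the genes named for having no start-site window, Insrr and Flt3 are relatives of the receptors, and Ddr2 and Tyro3 were added after their values were seen, so the contrasts with them follow from how they were picked. Igf1r and Insr had 3 start-site windows each where their relative Insrr had 0 and no window nearby, and Kit had 5 where Flt3 had 0. Ddr1 had 10 where its relative Ddr2 had 0, and Axl had 2 where its relative Tyro3 had 0.

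**Figure D5:**
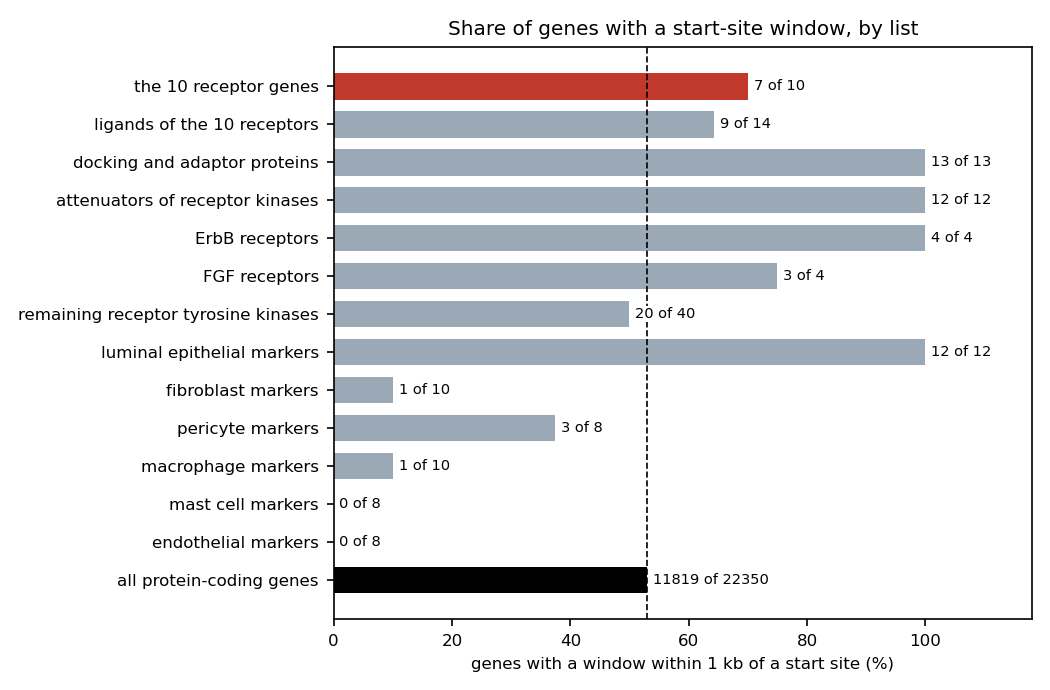
Bars give the percentage of genes in each list with a start-site window (1 kb), with the number of genes beside the bar and a dashed line at the 52.9% of all protein-coding genes. The 10 receptor genes (7 of 10) lie between the docking and attenuating genes (13 of 13 and 12 of 12) and the stromal and blood cell markers (0 to 3 genes of 8 or 10).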

How the data were processed

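ATAC-seq was performed by the authors on single sorted cells, and 1 list of accessible regions was deposited for the whole series. Per the study's methods and the submitters' processing notes, reads were mapped to mm9 with Bowtie2 2.1.0 (hg19 is also named in the notes), duplicates were removed with Picard 1.79, and summits were called on pooled cells with MACS2, whose version is not given here in any source, at a q threshold of 0.05. The summits were widened by the authors to 500 bp, and those ranked best by q-value, 50000 in number, were retained. Positions and names alone were deposited, so no q-value or count could be used. A window near the rank threshold and one far above it look alike, and the depth behind each is unknown.

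Windows were assigned to protein-coding genes of GENCODE M1 on mm9 in Python 3.11.15 with pandas 2.3.3, numpy 2.4.6, scipy 1.17.1, pysam 0.24.0 and samtools 1.23.1, and drawn with matplotlib 3.10.9. The summit was taken as the centre of the window, and distances were counted from it. Windows that share a call number in their name are summits of 1 called peak. Exon and intron numbers refer to the transcript named beside them. Overlap lookups and motif searches were tested on simulated data. The interval given is the exact (Clopper-Pearson) 95% binomial interval.

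The 10 receptors and the other lists were chosen with earlier results of these data known. All 10 receptors are named, and from each other list up to 3 genes with the most start-site windows and up to 3 without any, in list order. All listed symbols matched, Spi1 as Sfpi1. The alternatives tried were other start-site distances (500 and 2000 bp), summit instead of any base, outermost or coding start sites only, calls with 2 or more kept windows, merged windows, flanks of 0, 10 and 50 kb, and a central 200 bp for motifs. Wells were grouped by stain from the labels and not compared, since the list is pooled. Start-site sequences were printed for 7 of the 10 genes, and the others are not reported here.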

Additional observations from a re-analysis of the deposited data

How the results depend on the processing

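The number of receptors with a start-site window was 7 in 7 of 9 settings, counting the reported one. It was 6 with outermost start sites only and 5 with calls that kept 2 or more windows. The 28 start-site windows became 15 with outermost start sites only and 14 when windows overlapping by 1 bp were merged. The share of all genes with a start-site window was 51.7% with a distance of 500 bp, 54.4% with 2000 bp, 49.9% with outermost start sites, 52.2% with start sites of coding transcripts and 22.1% with calls that kept 2 or more windows, against 52.9% as reported. The 71 windows in or near the receptors became 27 with such calls, and ranged from 51 to 92 with the flank set to 0 or 50 kb. With a flank of 50 kb, Pdgfrb gained 1 window, which is the intragenic window of Csf1r. In the central 200 bp, SP/KLF was found in 39.3% of the receptors' start-site windows, against 47.9% of all, AP-1 in 3.57%, against 3.57%, the HIF core in 14.3%, against 17.5%, and ETS in 0%, against 9.57%. Without Ddr1, an alternative chosen after seeing the data, 61.1% of the receptors' start-site windows met the island criteria. Keeping calls with 2 or more windows selects on summits per call and is not a stricter q threshold. No paired analysis was possible because the results come from no test. Whether a gene without a window is closed or below the threshold of the list is unknown.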
